A study of Mus musculus with 8 samples.

Results

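The 8 Gimap genes of the mouse (Gimap1, Gimap3, Gimap4, Gimap5, Gimap6, Gimap7, Gimap8 and Gimap9) were examined in follicular regulatory T (TFR) cells. They were taken by gene symbol, and all 8 were found among 24421 rows of the count table. TFR cells are Foxp3-expressing T cells that enter B cell follicles and restrain germinal centre responses. The cells came from spleens of mice 36 days after 2 oral challenges with peanut plus the adjuvant cholera toxin, and were sorted from enriched CD4+ T cells by a Foxp3+YFP+, CXCR5+ and PD1+ gate. One group of 4 libraries, here Blimp1-flox, was made from mice whose labels give a floxed Blimp1 gene together with Foxp3-cre, and the other group of 4 libraries from wild-type (WT) mice under the same challenge. Blimp1, encoded by Prdm1, is a transcriptional repressor of effector lymphocytes, and Foxp3-cre acts in all Foxp3-expressing cells rather than in TFR cells alone. The labels do not say whether WT mice carried Foxp3-cre, whether both Blimp1 alleles were floxed, what age the mice were or whether each library is a mouse of its own. The p-values therefore set a difference between groups only against the spread of these libraries, and that spread may be technical.

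GIMAP proteins (GTPases of immunity-associated proteins) are small GTP-binding proteins found mainly in lymphocytes, where they sit on membranes of lysosomes, endoplasmic reticulum and other organelles. Their genes lie in a single cluster, and the family is known for its part in the survival of resting T cells. Loss of Gimap5 causes lymphopenia in rats and mice, and loss of Gimap1 removes mature T and B cells in mice. The cluster is used by B cells and by other T cells as well as by regulatory T cells, so Gimap transcripts do not mark TFR cells.

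In mm10 the cluster lies on chromosome 6 from 48647234 to 48770851, a span of 123.6 kb. Gimap8 comes first, followed by Gimap9, Gimap4, Gimap6, Gimap7, Gimap1, Gimap5 and Gimap3. Gimap6 and Gimap3 are on the minus strand and the others on the plus strand. All members share a GTP-binding loop. Its codons are given for each member from the longest open reading frame of the GENCODE M21 transcripts. Capitals mark the codons for the fixed glycine, glycine, lysine and serine, and lower case the 4 codons between them that can vary.
Gimap1: GGCaggactgggaccGGCAAGAGT
Gimap3: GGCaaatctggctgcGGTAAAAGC
Gimap4: GGAaaaactggagcaGGAAAGAGT
Gimap5: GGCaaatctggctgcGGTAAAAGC
Gimap6: GGGaaaacaggaagcGGGAAAAGT
Gimap7: GGGaaaacaggaagtGGAAAGAGC
Gimap8, first of 3: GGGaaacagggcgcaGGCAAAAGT
Gimap8, second of 3: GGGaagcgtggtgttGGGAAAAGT
Gimap8, last of 3: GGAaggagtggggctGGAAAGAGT
Gimap9: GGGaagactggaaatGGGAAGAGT
Gimap8 held 3 such loops in frame and each other member 1. Its open reading frame had 2067 bases, and those of the other members had 876 to 987. The loops of Gimap3 and Gimap5 differed at 0 of 24 bases, and the whole open reading frames of this pair were 90.9% identical over 898 aligned bases. Gimap8 and Gimap9 were 67.9% identical over an alignment of 40.8% of the longer frame, and Gimap7 and Gimap9 67.2% over 98.5% of it. Of the distinct stretches of 50 bases in the transcripts, 9.98% of those of Gimap5 and 7.52% of those of Gimap3 occurred in both genes, so reads from these stretches cannot be told apart and the counts of this pair are partly uncertain. The other 6 members shared 0 such stretches.

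The upstream sequences of 3 members are given because the members moved to different degrees. Gimap7 is the member that passed the test, Gimap3 was the most abundant, and Gimap1 holds the only match to the Blimp1 core among the member promoters. Each run covers the 250 bases before the start of the gene, from RefSeq on GRCm38.p6, with motif matches in capitals.
Gimap7, plus strand, chr6:48718371-48718620: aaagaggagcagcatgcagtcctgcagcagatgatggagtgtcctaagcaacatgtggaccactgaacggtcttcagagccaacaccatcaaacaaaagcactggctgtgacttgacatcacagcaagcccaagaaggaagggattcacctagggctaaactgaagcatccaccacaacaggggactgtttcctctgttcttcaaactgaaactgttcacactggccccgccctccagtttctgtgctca
Gimap3, minus strand, chr6:48770852-48771101: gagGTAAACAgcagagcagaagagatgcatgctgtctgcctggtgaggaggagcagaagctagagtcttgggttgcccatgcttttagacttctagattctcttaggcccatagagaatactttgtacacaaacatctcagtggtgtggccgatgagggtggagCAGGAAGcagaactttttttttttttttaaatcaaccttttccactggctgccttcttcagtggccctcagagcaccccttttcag
Gimap1, plus strand, chr6:48738797-48739046: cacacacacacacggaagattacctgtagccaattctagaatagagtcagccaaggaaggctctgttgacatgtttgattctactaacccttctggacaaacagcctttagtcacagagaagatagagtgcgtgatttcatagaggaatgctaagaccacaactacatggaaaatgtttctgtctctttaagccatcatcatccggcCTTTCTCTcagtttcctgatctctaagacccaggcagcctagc
The 8 members have 9 promoters in the RefSeq table, since Gimap8 has a pair of starts, and 5 motifs were searched on both strands. The Blimp1 core AGNGAAAG matched 1 of these 9, in Gimap1 at bases -43 to -36 from the start on the reverse strand, against 7.3% of 32851 promoters. The ETS core CAGGAAG matched 3 of 9, in Gimap3, Gimap5 and Gimap9, against 10.8% of all promoters. The FOXO motif GTAAACA matched 1 of 9, in Gimap3, against 3.17%. The interferon response motif (GAAA, any 2 bases, GAAA) and the RUNX motif TGTGGTT matched 0 of 9, against 2.98% and 4.4%. In the 250 bases before Gimap7 there was no match to any of the 5, which says nothing about binding outside these letters and this window.

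Library totals were 16425538 to 27595939 counts, and the Gimap genes together took 0.387% to 0.439% of them in Blimp1-flox and 0.466% to 0.576% in WT. Prdm1 was at 7.53 to 16.6 CPM (a count scaled to the size of its library, with TMM factors) in Blimp1-flox and 31.8 to 71.0 CPM in WT, with no overlap, in the direction the labels give. Transcripts of CD4+ T cells were present in every library, with Cd3e at 1220 CPM or more and Cd4 at 1070 CPM or more. For the other genes of the sort gate, Foxp3 was at 55.7 to 105 CPM, Cxcr5 at 391 to 568 CPM and Pdcd1 at 774 to 1477 CPM. Cd8a and the NK cell gene Ncr1 were at 0.351 CPM or less. The 7 CD8 and NK markers together were at 49.5 to 51.5 CPM in Blimp1-flox, above 33.5 to 45.2 CPM in WT. Single markers of this list went different ways. In 4 of the 7 the highest library was WT 4, and 1 was lower in all Blimp1-flox than in all WT libraries. Only 3 of the 7 were tested, with 0 called. In 1 of these 3 all Blimp1-flox libraries lay above all WT libraries, where 464 of all 12363 tested genes did. The libraries differed in B cell markers. Of 15 B cell markers, 14 were highest in WT 4 and 8 were lower in all Blimp1-flox than in all WT libraries. Of all tested genes, 4.72% were lower in that way. The summed level of the B cell markers was 560 to 698 CPM in Blimp1-flox and 674, 616, 1046 and 2639 CPM in WT 1, 2, 3 and 4. Summed pancreas acinar markers were at 51.8 to 103 CPM in Blimp1-flox and 33.2 to 67.3 CPM in WT, with 0 of 11 tested called. All 11 had a higher mean level in Blimp1-flox, with a median log2 ratio over WT of 0.88. In 2 of them all Blimp1-flox libraries lay above all WT libraries, where 464 of all 12363 tested genes did. In a principal component analysis the first component separated the groups, with WT at -51.8 to -1.77 and Blimp1-flox at 9.73 to 30.9. WT 4 lay farthest out on it, and Blimp1-flox 3 on the second component.

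The Gimap genes had lower mean levels in Blimp1-flox than in WT cells, and in edgeR Gimap7 alone passed the test over all genes. All 8 members had a negative log2 fold change (the log2 ratio of Blimp1-flox over WT), as did 49.9% of all 12363 genes tested. Their median was -0.30, against 0.0012 over all genes tested. By edgeR's quasi-likelihood test 1 member was called lower at an adjusted p under 0.05 and 0 higher, where 0.501% of all genes were called and 0.243% were called lower. At an unadjusted p under 0.01, 5 members were lower, where 3.2% of all genes were. In 4 members all Blimp1-flox libraries lay below all WT libraries, where 4.72% of all tested genes did. In bulk libraries a smaller number of Gimap-rich cells and less Gimap RNA per cell cannot be told apart.

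Gimap7 encodes a GTPase that in human cells hydrolyses GTP as a dimer and can pair with GIMAP2. It was at 149, 154, 109 and 151 CPM in the 4 Blimp1-flox libraries, against 219, 204, 241 and 294 CPM in the 4 WT libraries. The groups did not overlap, with Blimp1-flox 3 lowest and WT 4 highest. Gimap7 fell by 0.77 ± 0.14 (SE) on the log2 scale, to 141 ± 21.5 CPM in Blimp1-flox against 239.6 ± 39.4 CPM in WT (SD, n = 4 each; edgeR adjusted p = 0.0314). The 95% interval of the log2 fold change ran from -1.06 to -0.48, and the level was 41.3% lower. By unadjusted p it stood at place 33 of 12363 genes.

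B cell markers moved with genotype as Gimap7 did. A score of these markers was 1.35 to 2.46 in Blimp1-flox and 3.29, 3.29, 4.37 and 6.18 in WT 1 to 4, so no WT library matched the Blimp1-flox libraries in it. WT 1 and WT 2, whose summed B cell markers lay within the Blimp1-flox range, had 219 and 204 CPM of Gimap7, against at most 154 CPM in Blimp1-flox. Of the 15 B cell markers, at least 8 were still higher in WT 1 and WT 2 than in every Blimp1-flox library. Without WT 4 the log2 fold change of Gimap7 was -0.66 (edgeR adjusted p = 0.0394), and without both WT 4 and Blimp1-flox 3 it was -0.55 (edgeR adjusted p = 0.0209). In a fit that took the score as a second term, it was -0.38 and did not pass (edgeR adjusted p = 0.878). That score shared 63.2% of its variance with genotype, and 0 genes in all passed in that fit. The part of B cell RNA in the Gimap values was not tested beyond these fits. The call was lost without WT 3 (edgeR adjusted p = 0.0696), Blimp1-flox 1 (0.10), Blimp1-flox 2 (0.0513) or Blimp1-flox 4 (0.0922), with a log2 fold change of -0.77 to -0.82 in those 4 fits.

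**Figure D1:**
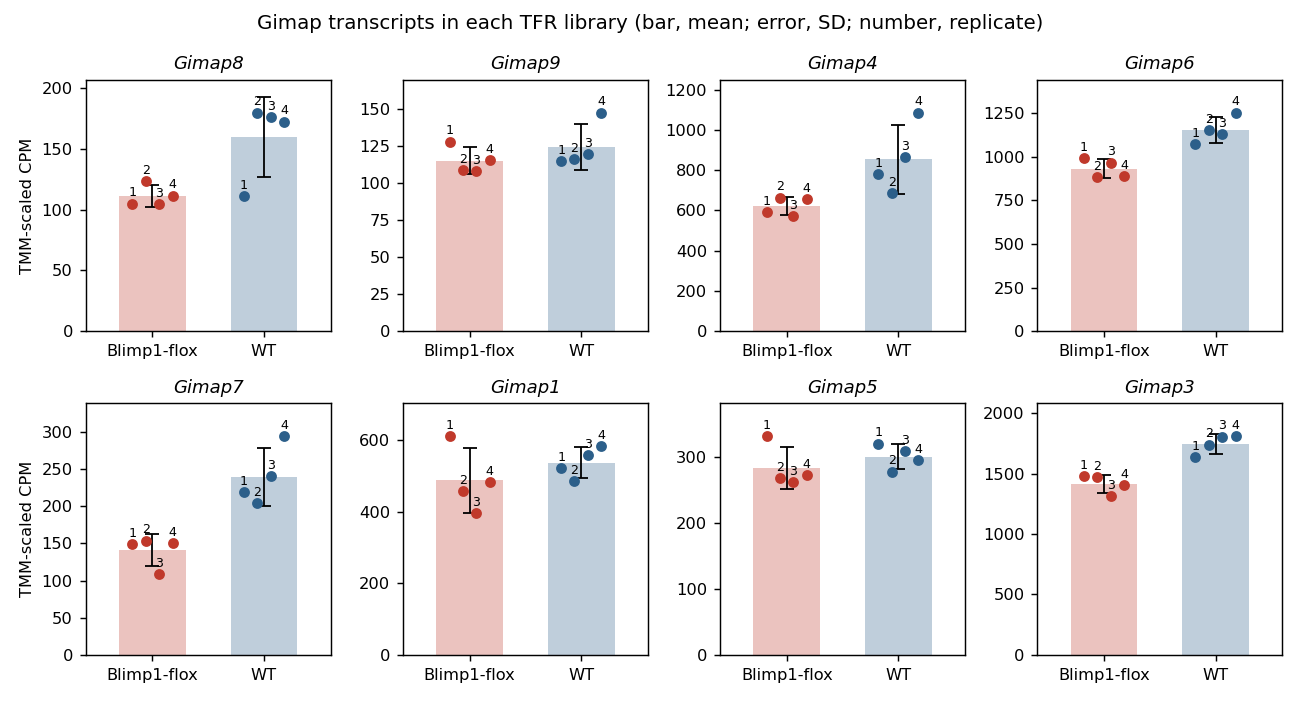
TMM-scaled CPM of the 8 Gimap genes, in chromosomal order, in 4 Blimp1-flox (red) and 4 WT (blue) TFR libraries. Each bar is a group mean, each error bar an SD and each number a replicate. The points of Gimap7, Gimap4, Gimap6 and Gimap3 do not overlap between the groups, and in Gimap8 the library WT 1 lies among the Blimp1-flox libraries.

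Gimap8, Gimap4, Gimap6 and Gimap3 had lower means in Blimp1-flox, and none of the 4 passed over all genes in edgeR. Gimap8, the longest member, was at 105, 124, 105 and 111 CPM in Blimp1-flox, against 111, 179.8, 176 and 172 CPM in WT. WT 1 stood with the Blimp1-flox libraries and the other WT libraries well above them. Gimap8 gave a log2 ratio of -0.52 ± 0.14 (SE; edgeR adjusted p = 0.114). Without WT 1 it was -0.66 and passed (edgeR adjusted p = 0.0143), and beside the B cell score it was -0.31 (edgeR adjusted p = 0.906).

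Gimap4 in mice speeds the death of T cells once apoptosis is under way. It was at 591, 663, 573 and 658 CPM in Blimp1-flox, against 781, 686, 865 and 1087 CPM in WT. The groups did not overlap, although Blimp1-flox 2 and WT 2 lay close together and WT 4 stood apart at the top. For Gimap4 the log2 ratio of Blimp1-flox over WT was -0.46 ± 0.13 (SE; edgeR adjusted p = 0.131). Without WT 4 it was -0.32, and beside the B cell score it was -0.037.

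Gimap6, which binds the autophagy protein GABARAPL2, was at 991, 884, 967 and 889 CPM in Blimp1-flox, against 1074, 1152, 1130.4 and 1254 CPM in WT. No library crossed to the other side, and the gap between Blimp1-flox 1 and WT 1 was small. This gave Gimap6 a log2 ratio of -0.31 ± 0.087 (SE; edgeR adjusted p = 0.137). Gimap3, a close relative of Gimap5 that acts with it in mouse T cell survival, was at 1480.0, 1468, 1317 and 1406 CPM in Blimp1-flox, against 1635, 1740.1, 1806 and 1809 CPM in WT. Again the groups were apart, with a coefficient of variation of 5.26% in Blimp1-flox and 4.66% in WT. Gimap3 thus differed by -0.30 ± 0.084 in log2 (SE; edgeR adjusted p = 0.130). Beside the B cell score the log2 ratio was -0.18 for Gimap6 and -0.20 for Gimap3. In the fit without the score the 95% intervals ended at -0.22 for Gimap8, -0.18 for Gimap4 and -0.12 for both Gimap6 and Gimap3.

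These 4 genes passed or failed by tool. DESeq2 called Gimap3, Gimap4, Gimap6, Gimap7 and Gimap8, with adjusted p from 4.1e-05 for Gimap7 to 0.0288 for Gimap4, where it called 1.9% of its tested genes lower. limma-voom with quality weights called Gimap3, Gimap6, Gimap7 and Gimap8, where it called 2.27% of genes lower. It left out Gimap4 with an adjusted p of 0.0504. The log2 ratio of Gimap3 was -0.30 in DESeq2 and -0.31 in limma-voom, while that of Gimap4 was -0.46 in DESeq2 and -0.36 in limma-voom, and that of Gimap7 was -0.76 and -0.67.

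Gimap5, Gimap1 and Gimap9 did not pass, and their groups overlapped. Gimap5, which lies on lysosomal membranes and restrains the kinase GSK3B in T cells, was at 332, 268, 262 and 272 CPM in Blimp1-flox, against 320.4, 278, 309.6 and 295 CPM in WT. Blimp1-flox 1 was the highest of all 8 libraries. Its log2 ratio, -0.085 ± 0.097 (SE), had a 95% interval from -0.30 to 0.13 (edgeR adjusted p = 0.703). Gimap1 was at 612, 459, 397 and 484 CPM in Blimp1-flox, against 522, 486, 558 and 585 CPM in WT. Here too Blimp1-flox 1 was highest, and Blimp1-flox 3 was lowest. Gimap1 had a log2 ratio of -0.14 ± 0.12 (SE) and a 95% interval from -0.41 to 0.13 (edgeR adjusted p = 0.602). Gimap9 was at 128, 109, 108 and 115 CPM in Blimp1-flox, against 115, 116, 119.7 and 148 CPM in WT. WT 4 stood above the other WT libraries, which lay within the Blimp1-flox range. For Gimap9 the log2 ratio was -0.11 ± 0.10 (SE), with a 95% interval from -0.34 to 0.11 (edgeR adjusted p = 0.615). Without Blimp1-flox 1 the log2 ratio of Gimap5 was -0.17 and that of Gimap1 -0.27. Without Blimp1-flox 3 they were -0.048 and -0.053. Without WT 4 that of Gimap9 was -0.023. All 3 intervals of the fit over 8 libraries include 0 and reach as low as -0.30, -0.41 and -0.34 in log2 for Gimap5, Gimap1 and Gimap9.

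**Figure D2:**
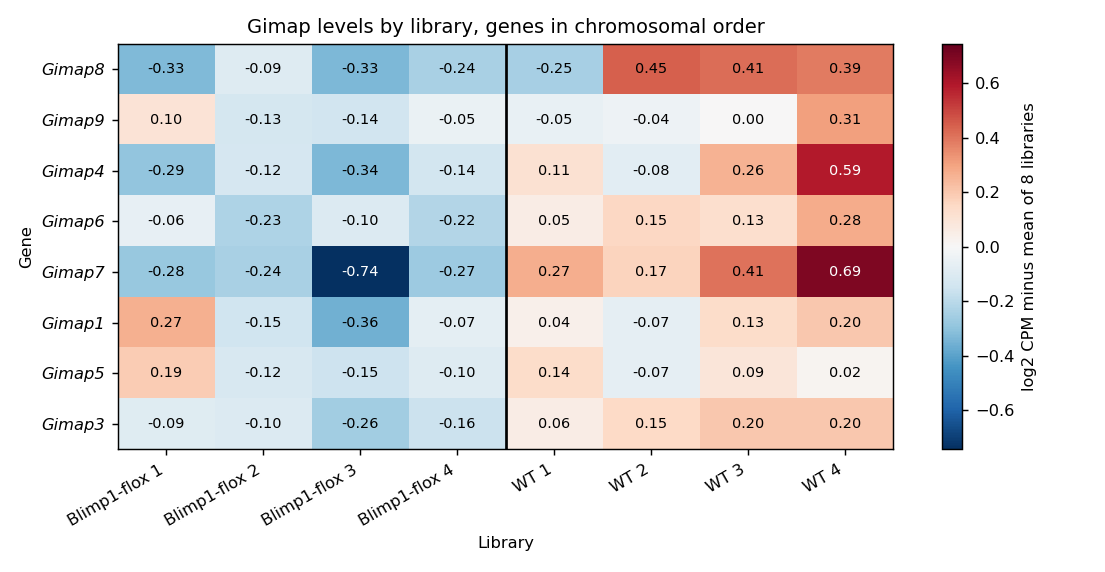
Level of each Gimap gene (rows, in chromosomal order) in each library (columns, Blimp1-flox left of the line and WT right) as log2 CPM minus its mean over the 8 libraries. Gimap7 spans -0.74 in Blimp1-flox 3 to 0.69 in WT 4, while Gimap5 stays between -0.15 and 0.19.

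The members differed in how far their profiles lay from each other. Each was compared with the mean profile of the 8 by the root mean square difference of centred log2 CPM over the 8 libraries. Gimap3 lay nearest that mean at 0.058, followed by Gimap6 at 0.091, and Gimap7 lay farthest at 0.248. This difference takes in the size of a change as well as its direction. In every library Gimap7 deviated in the same direction as the mean profile, and by more. It was at -0.74 against -0.30 in Blimp1-flox 3 and at 0.69 against 0.33 in WT 4. Between single members, Gimap3 and Gimap6 were the most alike pair at 0.084, and Gimap5 and Gimap7 the least at 0.394. The log2 ratio of Gimap5 to Gimap7 CPM was 0.80 to 1.27 in Blimp1-flox, against 0.55, 0.45, 0.36 and 0.0035 in WT. The ratio thus separated the groups, and its value in WT 4 was the lowest. The 2 genes lie on the same strand with Gimap1 between them, and GENCODE M21 places a read-through gene, Gm28053, over exons of Gimap7, Gimap1 and Gimap5. Gm28053 and Gimap1os, an antisense gene over exons of Gimap1, have no row of their own among the counts analysed here, so reads from either may be included in the counts of these members. No member shared exon bases with another row of the table.

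Levels of different members were compared per length of exon. Gimap3 was highest at 661 ± 34.8 CPM per kb in Blimp1-flox and 815 ± 38.0 CPM per kb in WT (SD, n = 4 each), which put it at place 38 of 24421 rows. Gimap6 followed at 579 ± 33.6 CPM per kb in Blimp1-flox and 715 ± 46.6 CPM per kb in WT, at place 48. These 2 overlapped in range within each group. Gimap4 was at 343 ± 25.5 CPM per kb in Blimp1-flox and 472 ± 94.6 CPM per kb in WT, below Gimap6 with no overlap. Gimap1, at 324 ± 59.9 CPM per kb in Blimp1-flox and 357 ± 28.7 CPM per kb in WT, overlapped with Gimap4 in both groups. Below a gap with no overlap came Gimap5, at 146 ± 16.6 CPM per kb in Blimp1-flox and 155 ± 9.52 CPM per kb in WT. Gimap7 was at 111 ± 16.9 CPM per kb in Blimp1-flox and 189 ± 31.0 CPM per kb in WT, so its mean was below that of Gimap5 in Blimp1-flox and above it in WT. The ranges of the pair were apart in Blimp1-flox and overlapped in WT. Gimap9 was at 83.3 ± 6.66 CPM per kb in Blimp1-flox and 90.2 ± 11.2 CPM per kb in WT and overlapped with Gimap7 in Blimp1-flox alone. Gimap8 was lowest at 30.03 ± 2.41 CPM per kb in Blimp1-flox and 43.2 ± 8.82 CPM per kb in WT, apart from Gimap9 in both groups.

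**Figure D3:**
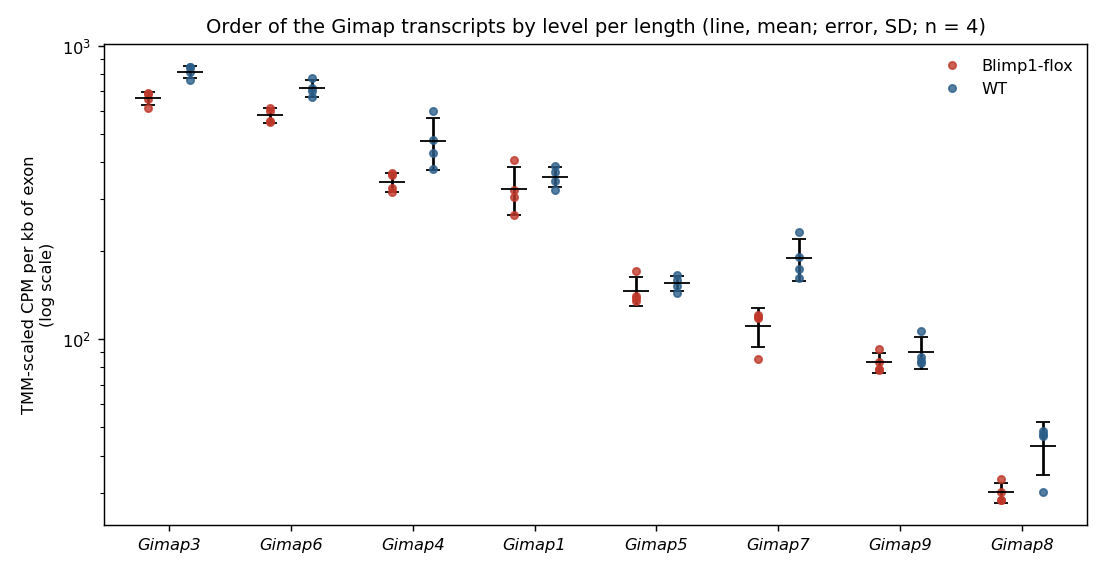
Level of each Gimap gene per length, as TMM-scaled CPM per kb of exon on a log axis, for Blimp1-flox (red, left of each pair) and WT (blue). Lines are means and error bars SDs over 4 libraries. Gimap3 and Gimap6 lie highest, Gimap8 lowest, and Gimap7 lies below Gimap5 in Blimp1-flox and above it in WT.

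As a share of the summed level per length, most members held their place. Gimap3 made up 28.2% to 30.1% of the sum in Blimp1-flox and 26.8% to 30.5% in WT. Gimap6 made up 24.1% to 28.3% in Blimp1-flox and 24.4% to 26.8% in WT. Gimap7 took 4.03% to 5.32% in Blimp1-flox and 6.04% to 7.36% in WT, with no overlap. Gimap9 took 3.46% to 3.79% in Blimp1-flox and 3.01% to 3.40% in WT, also with no overlap and in the other direction. Shares add up to the whole, so a lower share of one member raises those of the others. The summed CPM of the 8 genes was 4387, 4129.6, 3837 and 4087 in Blimp1-flox, against 4778, 4842, 5206 and 5644 in WT.

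Of the genes beside the cluster, 0 passed the test in edgeR. Within 500 kb the table held 23 other genes, of which 16 were tested. Their log2 ratios were positive in 12 and negative in 4, and the median was 0.19. The groups of all 12 positive genes overlapped. Tra2a, a splicing factor gene, was the only one of the 16 whose groups did not. It was at 39.5 to 48.3 CPM in Blimp1-flox and 48.9 to 57.2 CPM in WT. Of all tested genes, 4.72% lay lower in all Blimp1-flox than in all WT libraries. The log2 ratio of Tra2a was -0.26 (edgeR adjusted p = 0.250). The nearest tested gene before Gimap8 was AI854703, at 8.70, 4.49, 6.90 and 6.77 CPM in Blimp1-flox and 4.96, 5.06, 5.36 and 2.46 CPM in WT. Its groups overlapped, and its log2 ratio was 0.59 ± 0.28 (SE; edgeR adjusted p = 0.326). The nearest tested gene after Gimap3 was Tmem176b, which with its neighbour Tmem176a encodes membrane proteins known from dendritic cells. Tmem176b was at 49.3, 29.98, 17.6 and 35.1 CPM in Blimp1-flox and 20.5, 11.8, 25.6 and 8.88 CPM in WT, with a log2 ratio of 0.98 ± 0.38 (SE; edgeR adjusted p = 0.261). Tmem176a differed by a log2 ratio of 1.29 ± 0.39 (SE; edgeR adjusted p = 0.171), and DESeq2 called it (adjusted p = 0.00999). Its groups overlapped, through Blimp1-flox 3 at 6.98 CPM. Summed myeloid and dendritic markers were at 85.2, 29.6, 5.11 and 81.1 CPM in Blimp1-flox and 16.3 to 34.99 CPM in WT, and their part in these 2 genes was not tested.

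**Figure D4:**
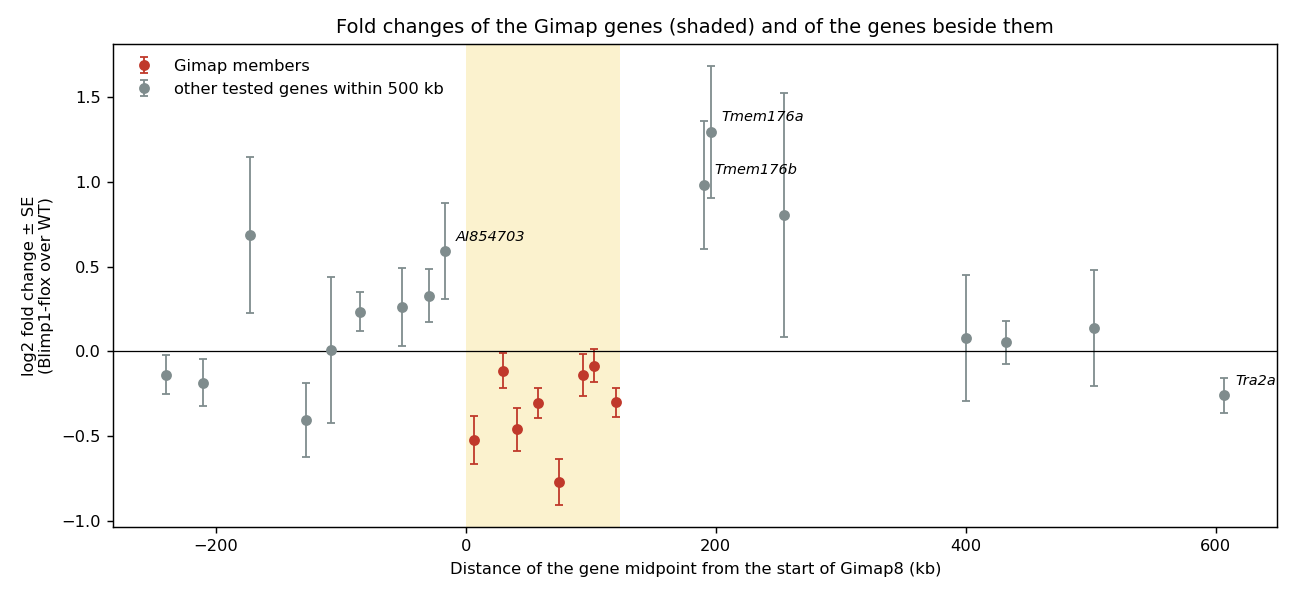
Log2 fold change (Blimp1-flox over WT) with its SE for the 8 Gimap genes (red, in the shaded cluster) and 16 other tested genes (grey) within 500 kb, against distance in kb from the start of Gimap8. All 8 red points lie below 0, and 12 of the 16 grey points lie above it.

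The genes that GIMAP proteins are described as acting with were followed in 4 lists, and 0 of their 59 tested members were called in edgeR, where 0.501% of all genes were. The BCL2 family, which sets the threshold for mitochondrial apoptosis, had 5 negative and 7 positive log2 fold changes among 12 genes, with a median of 0.022. Bad, a death-promoting member, stood at a log2 ratio of 0.38 (edgeR adjusted p = 0.232). Bcl2l1, which encodes the survival protein BCL-XL, had -0.23 (edgeR adjusted p = 0.266), Mcl1, another survival protein, had -0.17 (0.331) and Bbc3, which encodes the killer protein PUMA, had 0.26 (0.353). All 4 genes had overlapping groups.

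The autophagy list, which holds the ATG8 relatives that GIMAP6 binds to, had 6 negative and 8 positive values among 14 genes, with a median of 0.022. Gabarapl2, the partner of Gimap6, stood at a log2 ratio of 0.12 ± 0.13 (SE; edgeR adjusted p = 0.695). Atg16l1, which directs lipidation of ATG8 proteins, had -0.22 (edgeR adjusted p = 0.277) and Atg7, the enzyme that activates them, 0.20 (0.319). Gabarap and Sqstm1, a cargo receptor of autophagy, had 0.15 and 0.14 (edgeR adjusted p = 0.565 and 0.623). Atg16l1 lay lower and Atg7 higher in all Blimp1-flox than in all WT libraries, and the groups of the other 3 overlapped. Of all 12363 tested genes, 583 lay lower and 464 higher in that way.

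The list of GSK3, AKT, mTOR and lysosome genes, which covers the setting in which Gimap5 is described, had 7 negative and 8 positive values among 15 genes, with a median of 0.0054. Lamp2 and Lamp1, membrane proteins of the lysosome, had log2 ratios of 0.37 and 0.31 (edgeR adjusted p = 0.215 and 0.409). Akt1, a survival kinase, had 0.14 (edgeR adjusted p = 0.400) and Tfeb, a transcription factor of lysosomal genes, 0.19 (0.419). Akt1 was higher in all Blimp1-flox than in all WT libraries, and the groups of the other 3 overlapped. Of all 12363 tested genes, 464 were higher in that way.

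The quiescence list had 11 negative and 7 positive values among 18 genes, with a median of -0.090, and 3 of its genes lay lower in all Blimp1-flox than in all WT libraries, where 4.72% of all tested genes did. Bach2, a repressor that keeps T cells from effector fates, was at 15.7, 20.0, 19.7 and 13.9 CPM in Blimp1-flox, against 22.4, 34.7, 23.1 and 34.4 CPM in WT. Bach2 thus had a log2 ratio of -0.72 ± 0.18 (SE; edgeR adjusted p = 0.103). Bach2 is also used by B cells, and the part of B cell RNA in its values was not tested. Foxp1, a factor of naive T cell quiescence, stood at a log2 ratio of -0.41 ± 0.11 (SE; edgeR adjusted p = 0.112) and Btg1, an antiproliferative gene, -0.26 ± 0.083 (SE; 0.184). DESeq2, which called 1.9% of its tested genes lower, called Bach2 and Foxp1, and limma-voom with quality weights, which called 2.27% lower, called all 3. Foxo3, a forkhead factor of the same list, had a log2 ratio of 0.95 ± 0.32 (SE; edgeR adjusted p = 0.186) and its groups overlapped.

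The genes whose profile over the 8 libraries was most like the mean of the Gimap genes were Atp5sl, Rbm48, Ier5, Fcrl1 and Izumo1r, among 7790 genes compared. Their root mean square differences from that mean were 0.049, 0.060, 0.060, 0.067 and 0.072, against a median of 0.257 over the genes compared. Izumo1r encodes folate receptor 4, a surface protein of regulatory and follicular T cells. It was at 1072, 967, 831 and 950.1 CPM in Blimp1-flox, against 1260.5, 1113, 1238 and 1357 CPM in WT, and its log2 ratio was -0.38 (edgeR adjusted p = 0.112). Fcrl1, a receptor known from B cells, was at 29.96 to 36.1 CPM in Blimp1-flox and 37.8 to 51.0 CPM in WT. Ier5, an immediate early gene, was at 219 to 244 CPM in Blimp1-flox and 246 to 307 CPM in WT. The mean Gimap profile itself has every Blimp1-flox library below every WT library and WT 4 highest, so the same order in these 5 genes follows from how they were chosen.

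**Figure D5:**
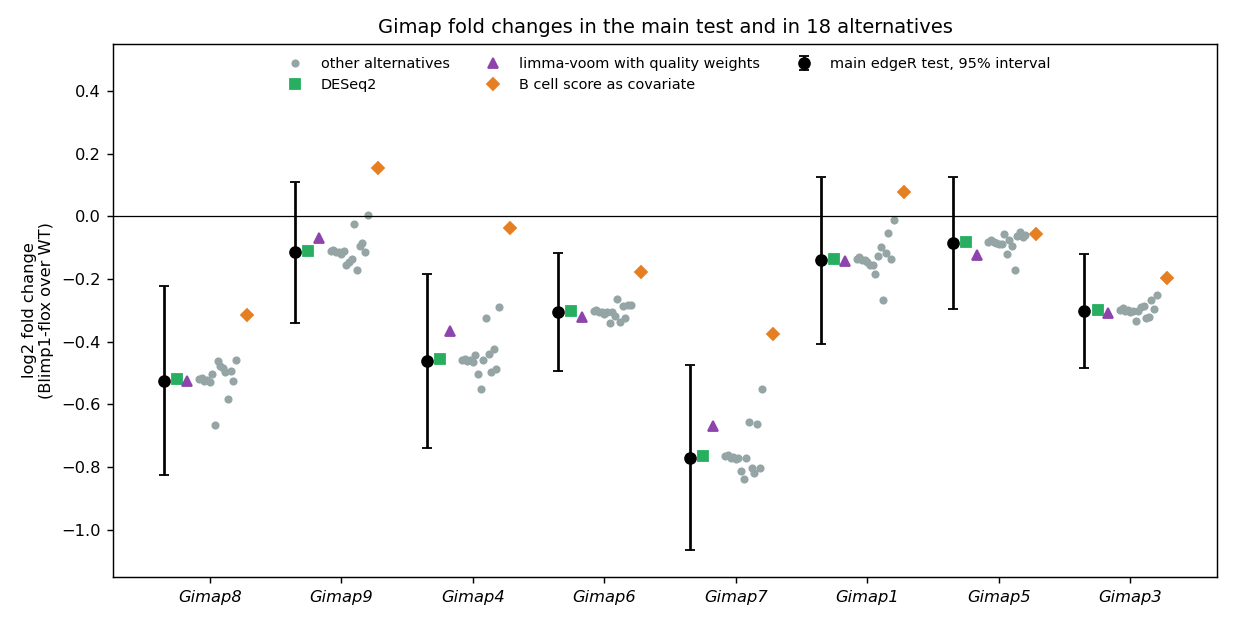
Log2 fold change of each Gimap gene (Blimp1-flox over WT) in the main edgeR test (black, with its 95% interval) and in 18 alternatives, with DESeq2, limma-voom and the fit with a B cell score marked. Gimap7 ranges from -0.84 to -0.38 and stays lowest, and the fit with the B cell score gives the highest value for 7 of the 8 genes.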

How the data were processed

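RNA of sorted TFR cells was sequenced in 4 Blimp1-flox and 4 WT libraries, made with a KAPA mRNA kit according to the labels. The submitters' processing notes name STAR 2.5.2b, featureCounts, Subread 1.5.1 and the build mm10. The authors deposited whole-number read counts for each gene, not normalized. The deposited table also gives another measurement, the summed exon length in bases. The annotation and strand setting are not given in the sources used here. Genes were filtered with filterByExpr, leaving 12363, scaled by TMM and tested with edgeR 4.0.16 (robust quasi-likelihood F test, genotype alone, Benjamini-Hochberg, R 4.3.3), which was also tested on simulated data. DESeq2 1.42.0 and limma 3.58.1 were alternatives. Standard errors come from the F statistic. Log2 profiles used a prior count of 2. Alike genes needed a mean log2 CPM of at least 4. All members are named, with Prdm1 and Foxp3, the neighbours at the ends of the cluster, the 4 list members of lowest p and the 5 most alike genes. Gabarapl2, Tmem176a, Tra2a and the sorting and lineage markers were named after their values were seen. Members and lists were chosen with earlier results of these data known. Foxp3 differed by a log2 ratio of -0.40 (edgeR adjusted p = 0.176). Summed marker levels were 7555 to 8691 CPM in Blimp1-flox and 7426 to 8983 CPM in WT for T cells, and 3403 to 4118 CPM in Blimp1-flox and 3304 to 3982 CPM in WT for TFR cells. They were 219.9 to 331 CPM in Blimp1-flox and 229 to 313 CPM in WT for plasma cells, and 49.5 to 51.5 CPM in Blimp1-flox and 33.5 to 45.2 CPM in WT for CD8 and NK cells. For erythroid cells and platelets they were 5.18 to 13.1 CPM in Blimp1-flox and 12.4 to 26.9 CPM in WT, with 4 of 8 markers at 0, and for endothelium 118 to 165 CPM in Blimp1-flox and 117 to 168 CPM in WT. These sums can hide single markers. Of 8 tested TFR markers, edgeR called 1 lower in Blimp1-flox and 0 higher, where 0.243% of all tested genes were called lower. Of 4 tested plasma cell markers it called 1 higher and 0 lower, where 32 of 12363 tested genes were called higher.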

Additional observations from a re-analysis of the deposited data

Results flagged for a closer look

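Within the groups of 4 libraries, 74 sets of values were examined for a library far from the other 3. In 6 of them the gap was larger than chance gives in about 1 in 20 groups. The sets are not independent, since they include the summed Gimap level and genes chosen for likeness to the members. Whether 6 of 74 is more than chance gives was not tested. Gimap7 in Blimp1-flox 3, at 108.5 CPM, lay below 149 to 154 CPM in the other Blimp1-flox libraries. Gimap5 in Blimp1-flox 1, at 332 CPM, lay above 262 to 272 CPM. Gimap8 in WT 1, at 111.04 CPM, lay below 172 to 179.8 CPM in the other WT libraries. Gimap9 in WT 4, at 148 CPM, lay above 115 to 119.7 CPM. The neighbour AI854703 in WT 4, at 2.46 CPM, lay below 4.96 to 5.36 CPM. Atp5sl in Blimp1-flox 3, at 39.8 CPM, lay below 44.7 to 45.4 CPM. Of the 4 Gimap flags each fell in a different library. No interaction was tested, since the design has a single contrast.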

How the results depend on the processing

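The edgeR test called 62 genes and 1 Gimap gene. RLE, upper-quartile and library-total scaling, both filters and the fit with a replicate block kept Gimap7 as the 1 called member. DESeq2 called 457 genes, 5 Gimap genes, 1 gene near the cluster (Tmem176a) and 2 list genes, and limma-voom with quality weights called 494 genes, 4 Gimap genes and 3 list genes. Without single libraries the counts ran from 20 to 127 genes, 0 to 2 Gimap genes and 0 to 1 list genes. The fits without WT 1 (127), WT 2 (27), Blimp1-flox 1 (20), Blimp1-flox 3 (94) and Blimp1-flox 4 (23) moved the count of genes by over 1.5 times. Without both WT 4 and Blimp1-flox 3, 157 genes, 1 Gimap gene and 1 list gene (Ccr7) were called. Beside a B cell score 0 genes and 0 Gimap genes were called, with 693 genes at an unadjusted p under 0.05. At an adjusted p under 0.1 there were 182 genes, and under 0.01 there were 16 genes and 0 Gimap genes.

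Gimap3, Gimap4, Gimap5, Gimap6, Gimap7 and Gimap8 had a negative log2 fold change in all 18 alternatives. With the B cell score Gimap1 was at 0.078 and Gimap9 at 0.16, and without both WT 4 and Blimp1-flox 3 Gimap9 was at 0.0045. The cause of these changes was not tested. Replicate numbers did not pair the libraries: same-numbered libraries had correlations of 0.1, 0.153, -0.102 and -0.108, and 1 of 4 WT libraries correlated best with its own number. The replicate block called 52 genes and 1 Gimap gene, with Gimap7 at -0.77 (edgeR adjusted p = 0.048). Members had at least 1724 counts in every library, so counting error is small beside the spread between libraries.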
